A study of Homo sapiens with 4 samples.

Results

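The subject is 10 human genes for the factors that end translation and that decide which mRNAs are then destroyed. They are the release factors GSPT1 and ETF1, the recycling factor ABCE1, the rescue factors PELO and HBS1L, and the nonsense-mediated decay factors UPF1, UPF2, UPF3B, SMG1 and SMG5. They were picked by gene name, out of 58174 genes listed, around the low level of GSPT1 in libraries transfected with si-FENDRR. The difference between the transfections in these genes is therefore described without a test, and the difference between the cell lines is tested. The choice did not use the line difference. For GSPT1 the error of that test rests on its transfection differences, so its p-value is not independent of the choice. The groups were LM3 cells, a hepatocellular carcinoma line, transfected with si-FENDRR or with si-NC, and RBE cells, an intrahepatic cholangiocarcinoma line, transfected with si-FENDRR or with si-NC. All 4 cultures were transfected by lipofection and harvested after 48 h, and each gave 1 mRNA library. The siRNA si-FENDRR is directed at FENDRR, a long noncoding RNA, and si-NC is the negative control siRNA. No untransfected culture and no siRNA sequence was analysed here.

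A ribosome that reaches a stop codon is met by a complex of ETF1 (eRF1), which reads the stop codon and releases the finished protein, and GSPT1 (eRF3a), the GTPase that delivers ETF1. ABCE1 then splits the ribosome into its subunits, while the related pair PELO and HBS1L frees ribosomes that stall without a usable stop codon. Where termination happens too early on an mRNA, the helicase UPF1 meets the release factors, is phosphorylated by the kinase SMG1, and recruits the adaptor SMG5 and the decay enzymes. UPF2 and UPF3B link UPF1 to the exon junction complex, the mark that splicing leaves on an mRNA.

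The values are FPKM, fragments scaled to the length of the gene and to the mapped fragments of the library, which allow levels of different genes to be compared per length. Between 13437 and 13682 genes reached an FPKM of 1 in each library. The depth is unknown, and with 1 library per line and transfection no value has a replicate check within a line. FENDRR was listed at 0 in all 4 libraries, si-NC included, so the knockdown itself could not be checked and the libraries are compared by their labels. LM3 carried ALB (35.7 and 33.3 FPKM) and AFP (10.1 and 8.25 FPKM) of a hepatocyte list, while APOA1 and APOA2 did not exceed 0.103 FPKM, and 7 of 11 of these markers reached an FPKM of 1 in each LM3 library and likewise 7 in each RBE library, so this count does not set the lines apart. In each RBE library 9 of 10 cholangiocyte markers reached an FPKM of 1, all but CFTR (0.0209 and 0.0230 FPKM), against 5 in each LM3 library, and SERPINA1 of the hepatocyte list was high in RBE (56.8 and 82.5 FPKM) and not in LM3 (0.0957 and 0.0892 FPKM). Of 5 leukocyte markers, CD3E was listed at 0 in all 4 libraries and PTPRC did not exceed 0.130 FPKM, while CD68 had 60.1 and 62.2 FPKM in LM3 and 14.2 and 13.9 FPKM in RBE, and LYZ had 12.7 and 12.5 FPKM in RBE.

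GSPT1 (ENSG00000103342, chr16:11868128-11916082, minus strand, hg38) had 22.8 FPKM with si-FENDRR against 65.5 FPKM with si-NC in LM3. In RBE it had 39.3 FPKM with si-FENDRR against 129 FPKM with si-NC. Both si-FENDRR libraries lay below both si-NC libraries, although RBE had the higher level under each transfection. The si-NC level was 2.87 times the si-FENDRR level in LM3 and 3.28 times in RBE, or log2(FPKM + 1) differences of -1.48 and -1.69. Among the 15930 genes that reached an FPKM of 1 in 1 or more libraries, this was the 55th lowest difference in LM3 and the 32nd lowest in RBE. By level, GSPT1 ranked 3232nd with si-FENDRR against 1024th with si-NC in LM3, and 1710th with si-FENDRR against 441st with si-NC in RBE. These values were the basis of the choice of genes and are a description. In RNA from a whole culture, fewer cells with GSPT1 mRNA and less of it per cell cannot be told apart. Over all genes, limma called 0 between si-FENDRR and si-NC over both lines at an adjusted p of 0.05 (0.0% of 15930, with 657 at an unadjusted p under 0.05).

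GSPT1 has a paralog, GSPT2 (eRF3b), on the X chromosome, a gene of 1 exon whose protein can also pair with ETF1. GSPT2 stood at 8.84 FPKM (si-FENDRR) and 8.24 FPKM (si-NC) in LM3 and was listed at 0 in both RBE libraries. Its level was thus about alike in both LM3 libraries, while that of GSPT1 was not. Reads from the pair could be confused by an aligner, so their coding sequences were compared. Over 1863 aligned coding bases, 88.5% were identical, and the longest run without a difference was 49 bases. That run is printed here with 30 bases on each side, read from GENCODE release 29 transcripts on GRCh38, 5′ to 3′ on the coding strand. Capitals mark the 6 bases that differ. The GSPT1 stretch covers coding bases 854 to 962 and joins exons 7 and 8 (chr16:11886927-11887673, minus strand), and the GSPT2 stretch covers coding bases 827 to 935 (chrX:51744453-51744561, plus strand).
GSPT1: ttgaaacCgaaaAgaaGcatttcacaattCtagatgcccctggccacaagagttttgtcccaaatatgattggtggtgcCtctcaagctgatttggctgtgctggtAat
GSPT2: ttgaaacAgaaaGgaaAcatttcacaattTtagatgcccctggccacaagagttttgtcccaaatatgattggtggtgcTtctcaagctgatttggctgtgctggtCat
A fragment that lies wholly inside the lower-case middle fits both genes, and one that reaches a capital base tells them apart. No source used here gives the authors' treatment of fragments that fit several genes.

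**Figure D1:**
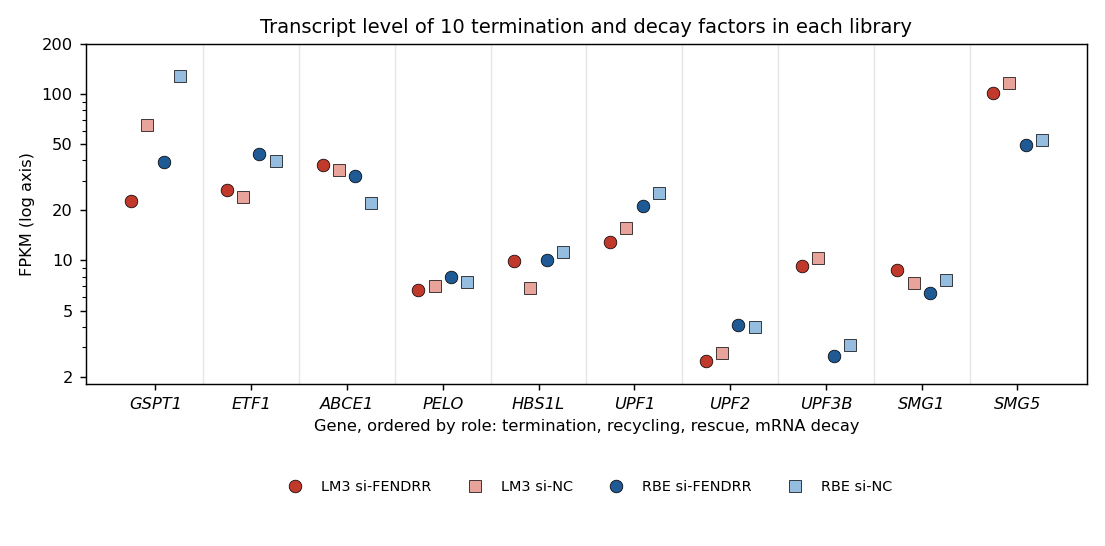
FPKM (log axis) of each of the 10 genes in the 4 libraries, 1 point per library, with si-FENDRR as dark circles and si-NC as pale squares, LM3 in red and RBE in blue. GSPT1 is the gene whose circles (22.8 and 39.3 FPKM) lie far below its squares (65.5 and 129 FPKM). UPF3B and SMG5 lie farthest apart between the lines, and GSPT1 and SMG1 overlap between them. PELO (7.06 FPKM in LM3 si-NC, 7.43 FPKM in RBE si-NC) and HBS1L (9.89 FPKM in LM3 si-FENDRR, 10.1 FPKM in RBE si-FENDRR) nearly do. The share of all genes that overlap was not counted, so nothing is read from this.

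ETF1 (ENSG00000120705, chr5:138506095-138543300, minus strand), the partner of GSPT1 that reads the stop codon, had 26.5 FPKM with si-FENDRR against 24.1 FPKM with si-NC in LM3. In RBE it had 43.5 FPKM with si-FENDRR against 39.4 FPKM with si-NC. ETF1 was a little higher with si-FENDRR in both lines, by 9.72% in LM3 and 10.3% in RBE, a difference far smaller than that of GSPT1 and in the other direction. The ratio of GSPT1 to ETF1 transcripts was 0.863 in LM3 si-FENDRR cells against 2.72 in LM3 si-NC cells. In RBE the ratio was 0.903 with si-FENDRR against 3.26 with si-NC. GSPT1 transcripts thus outnumbered ETF1 transcripts per length in both si-NC libraries and not in either si-FENDRR library. The 2 lines differed less from each other in this ratio than the 2 transfections did.

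ABCE1 (ENSG00000164163, chr4:145097932-145129179, plus strand), the ATPase that separates the ribosomal subunits, had 37.4 FPKM with si-FENDRR against 35.0 FPKM with si-NC in LM3. In RBE it had 32.0 FPKM with si-FENDRR against 22.3 FPKM with si-NC. It was higher with si-FENDRR in each line, by 6.91% in LM3 and 43.6% in RBE. Its exons overlap those of ANAPC10 and OTUD4 (6.66 to 7.96 FPKM) on the other strand, and no source used here gives the strand setting of the libraries. ANAPC10 had 15.2 FPKM with si-FENDRR against 8.95 FPKM with si-NC in LM3, and 9.69 (si-FENDRR) against 8.66 (si-NC) FPKM in RBE, and its part in the ABCE1 values was not tested. Per ETF1 transcript, the ABCE1 ratio in LM3 was 1.41 (si-FENDRR) and 1.45 (si-NC), and in RBE it was 0.736 (si-FENDRR) and 0.565 (si-NC).

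**Figure D2:**
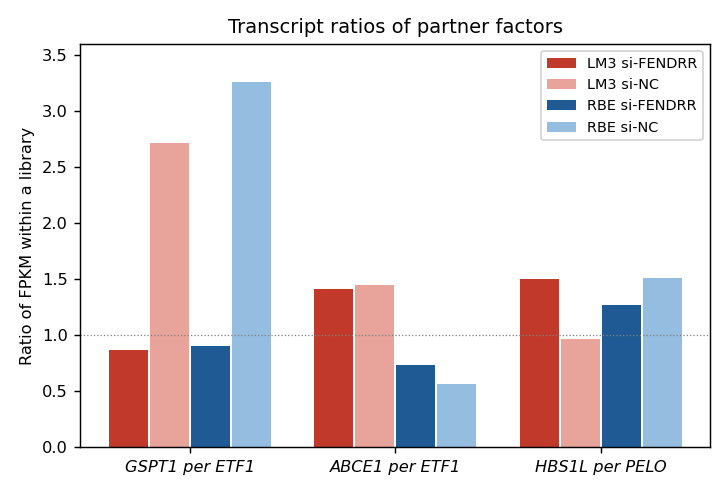
Ratio of the FPKM of partner genes within each library, 1 bar per library, from an axis that starts at 0, with a dotted line at equal levels. GSPT1 per ETF1 is 0.863 and 0.903 in the si-FENDRR libraries of LM3 and RBE, against 2.72 and 3.26 in the si-NC libraries, and neither of the other ratios separates the transfections.

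The rescue pair had no common direction. PELO (ENSG00000152684, chr5:52787940-52804046, plus strand), a relative of ETF1 that enters stalled ribosomes, had 6.60 FPKM with si-FENDRR against 7.06 FPKM with si-NC in LM3, and 7.94 (si-FENDRR) against 7.43 (si-NC) FPKM in RBE. All 4 libraries lay within a narrow range. PELO shares exons with the integrin gene ITGA1 on its strand, which stood at 0.959 to 1.21 FPKM. HBS1L (ENSG00000112339, chr6:134960378-135103056, minus strand), the GTPase partner of PELO and a relative of GSPT1, had 9.89 FPKM with si-FENDRR against 6.79 FPKM with si-NC in LM3. In RBE it had 10.1 FPKM with si-FENDRR against 11.2 FPKM with si-NC, so the lines went opposite ways. HBS1L also gives a short splice form that joins the exosome to the SKI complex, and a value per gene does not tell the forms apart.

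Among the decay factors, 3 of 5 were slightly lower with si-FENDRR in both lines, against 21.8% of all genes, and nothing is read from this count. UPF1 (ENSG00000005007, chr19:18831938-18868236, plus strand), the helicase at the centre of nonsense-mediated decay, had 12.9 FPKM with si-FENDRR against 15.7 FPKM with si-NC in LM3, and 21.4 (si-FENDRR) against 25.6 (si-NC) FPKM in RBE. SMG5 (ENSG00000198952, chr1:156249224-156282825, minus strand), which binds phosphorylated UPF1, had 101 FPKM with si-FENDRR against 117 FPKM with si-NC in LM3, and 49.6 (si-FENDRR) against 52.6 (si-NC) FPKM in RBE. UPF3B (ENSG00000125351, chrX:119805311-119852998, minus strand), which binds the exon junction complex, had 9.29 (si-FENDRR) against 10.4 (si-NC) FPKM in LM3 and 2.67 (si-FENDRR) against 3.10 (si-NC) FPKM in RBE. For UPF1 the difference was near alike in the lines, -17.7% in LM3 and -16.4% in RBE. UPF2 (ENSG00000151461, chr10:11920022-12043170, minus strand), the bridge between UPF1 and UPF3B, had 2.48 FPKM with si-FENDRR against 2.77 FPKM with si-NC in LM3, and 4.07 (si-FENDRR) against 3.98 (si-NC) FPKM in RBE.

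SMG1 (ENSG00000157106, chr16:18804853-18926454, minus strand), the kinase that phosphorylates UPF1, had 8.79 FPKM with si-FENDRR against 7.31 FPKM with si-NC in LM3, and 6.33 (si-FENDRR) against 7.61 (si-NC) FPKM in RBE. The 2 lines went opposite ways by about the same amount, with log2 differences of 0.24 and -0.23. SMG1 has 7 listed pseudogenes on chromosome 16 that derive from parts of it, SMG1P1 to SMG1P7. Their summed level was 25.3 FPKM with si-FENDRR against 27.7 FPKM with si-NC in LM3, and 24.7 (si-FENDRR) against 24.9 (si-NC) FPKM in RBE. This sum lay above SMG1 in each library, while the highest single copy lay below it. That copy had 6.38 (si-FENDRR) and 7.28 (si-NC) FPKM in LM3, and 5.74 (si-FENDRR) and 5.79 (si-NC) FPKM in RBE. Since fragments can fit several of these copies, the SMG1 values are uncertain. For the other genes, copies named after ETF1 (ETF1P1 and ETF1P3) did not exceed 0.0815 FPKM.

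Over the 10 genes, 1 differed at least 2-fold between si-FENDRR and si-NC in LM3 (2.13% of all 15930 genes did, 0.942% lower and 1.19% higher) and 1 in RBE (1.75% of all genes, 0.873% lower and 0.879% higher). It was GSPT1 in both, and 0.0879% of all genes were at least 2-fold lower in both lines. Of the 10, 4 were lower with si-FENDRR in both lines (21.8% of all genes were), 2 were higher in both (26.9%), and 4 went opposite ways (47.1%). Nothing is read from these counts, since the choice of genes rested on this contrast. The other 9 genes ranged from -0.26 to 0.48 in LM3 and from -0.25 to 0.50 in RBE on the log2 scale, with HBS1L at the top in LM3 and ABCE1 at the top in RBE. The median over all 10 was -0.10 in LM3 and -0.11 in RBE, against 0 and 0.02 over all genes.

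**Figure D3:**
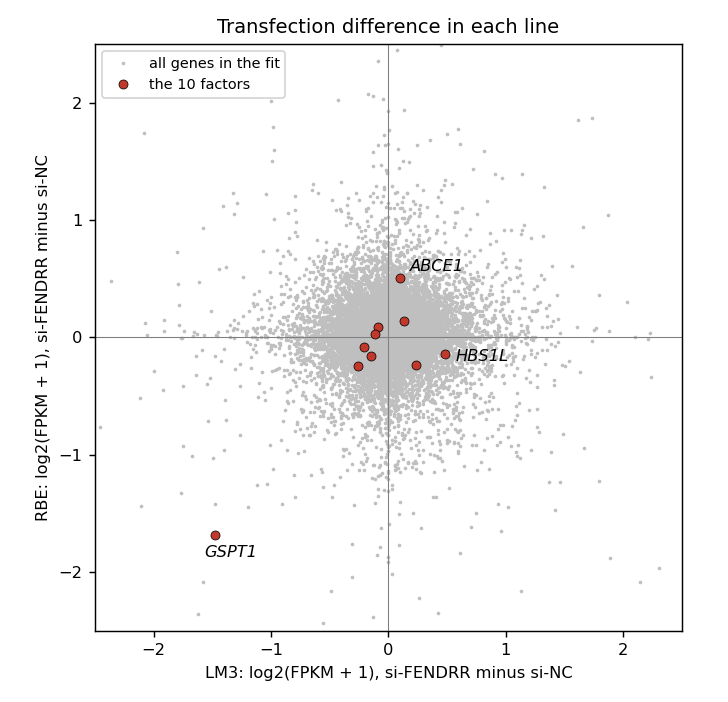
Difference of log2(FPKM + 1) between si-FENDRR and si-NC in RBE (y axis) against that in LM3 (x axis), with the 15930 genes in the fit in grey and the 10 factors in red. The axes end at 2.5 in each direction and leave out 39 genes. GSPT1 lies at -1.48 and -1.69, and the other 9 factors lie between -0.26 and 0.50.

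The 5 genes whose pattern over the 4 libraries was most like that of GSPT1, by Euclidean distance between log2(FPKM + 1) values after each gene's mean was removed, were taken from 13195 genes that share no exon on their strand. The nearest was XBP1, a transcription factor that responds to unfolded proteins, at a distance of 0.53, with 34.4 FPKM with si-FENDRR against 68.9 FPKM with si-NC in LM3 and 60.8 (si-FENDRR) against 133 (si-NC) FPKM in RBE. The next was MAPK14, the stress kinase p38 alpha, at 0.68, with 5.44 (si-FENDRR) against 13.7 (si-NC) FPKM in LM3 and 5.96 (si-FENDRR) against 18.0 (si-NC) FPKM in RBE. AC093484.4 (0.75) and AC024267.6 (0.76), annotated as antisense to other genes, and the microRNA gene MIR4263 (0.79) followed, the last 2 listed at 0 in the LM3 si-FENDRR library and at most at 1.74 FPKM elsewhere. Of the other 9 factors, UPF1 came closest, at 1.34, and UPF3B lay farthest, at 2.75. These distances describe 4 libraries and carry no test.

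The lines were compared by limma, with a term for transfection, over the same 15930 genes and with 2 libraries per line. Of the 10 genes, 6 were called at an adjusted p of 0.05, 2 higher in LM3 and 4 lower. Over all genes, 58.7% were called (32.3% higher in LM3 and 26.4% lower), so the share among the 10 is near that of any gene. Each line has 1 si-FENDRR and 1 si-NC library, and a p-value here asks whether the mean difference between LM3 and RBE is 0. Its error comes from how unlike that difference was under the transfections, and from a prior variance fitted over all genes.

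UPF3B was higher in LM3, with a log2 difference of 1.48 ± 0.12 (SE, n = 2 libraries per line, limma adjusted p = 0.00274), where ± gives the SE here and in all line differences. Its level in LM3 was 3.48 times that in RBE with si-FENDRR and 3.36 times with si-NC. SMG5 was higher in LM3 by 1.08 ± 0.11 (limma adjusted p = 0.00401), 2.04 times the RBE level with si-FENDRR and 2.23 times with si-NC. At a pseudocount of 5 the difference was 0.91 for UPF3B and 1.02 for SMG5, both still called, so which of them differs more depends on the pseudocount. These 2 genes, both of the decay pathway, had both LM3 libraries above both RBE libraries, as did ABCE1, which was not called. The share of all genes that did so was not counted.

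The release factors were lower in LM3. GSPT1 had a log2 difference of -0.86 ± 0.12 (SE, n = 2 libraries per line, limma adjusted p = 0.00762) and ETF1 of -0.69 ± 0.11 (limma adjusted p = 0.0104). ETF1 was higher in both RBE libraries than in both LM3 libraries, by 1.64 times under each transfection, whereas the GSPT1 values of the lines overlapped, since the RBE si-FENDRR library (39.3 FPKM) lay below the LM3 si-NC library (65.5 FPKM). The call for GSPT1 therefore needs the transfection term, and without that term its adjusted p by limma was 0.376. With the term, the error for GSPT1 rests on the transfection differences behind its choice, so that p-value is not independent of the choice. UPF1 was lower in LM3, at -0.68 ± 0.11 (limma adjusted p = 0.0118) and UPF2 at -0.47 ± 0.13 (limma adjusted p = 0.0438). The UPF2 call was lost at a pseudocount of 0.1 (limma adjusted p = 0.0534), with equal library totals (0.0579) and with low genes left in (0.106), and at a pseudocount of 5 its difference was -0.24 (0.0491). With any 1 of the 4 libraries left out and the line as the only term, UPF3B and SMG5 remained called each time, ETF1 in 3 of 4 fits, and GSPT1, UPF1 and UPF2 in 0 of 4. Such a fit leaves the transfections unequal between the lines. The GSPT1 difference was -0.12 without LM3 si-FENDRR, -1.60 without LM3 si-NC, -1.70 without RBE si-FENDRR and -0.02 without RBE si-NC. Over the same fits UPF1 ranged from -0.81 to -0.55 and UPF2 from -0.53 to -0.41. ETF1 missed the threshold without the RBE si-FENDRR library (-0.62, limma adjusted p = 0.0560).

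The other 4 genes did not pass the threshold between the lines. ABCE1 differed by 0.42 ± 0.15 (SE, n = 2 libraries per line, limma adjusted p = 0.0772), SMG1 by 0.18 ± 0.17 (adjusted p = 0.397), PELO by -0.15 ± 0.13 (adjusted p = 0.362) and HBS1L by -0.33 ± 0.20 (adjusted p = 0.214). With single libraries left out and the line as the only term, ABCE1 passed without RBE si-FENDRR (0.67, limma adjusted p = 0.0436) and not without RBE si-NC (0.17, 0.275), LM3 si-FENDRR (0.38, 0.380) or LM3 si-NC (0.47, 0.298). In the same fits HBS1L ranged from -0.58 without LM3 si-FENDRR to -0.09 without LM3 si-NC, and SMG1 from 0.07 without LM3 si-FENDRR to 0.30 without LM3 si-NC, and neither passed. The order of the levels also depended on the line. SMG5 was the highest of the 10 in each library other than RBE si-NC, where GSPT1 was. UPF2 was the lowest in both LM3 libraries and UPF3B in both RBE libraries, so that UPF2 per UPF3B, the bridge per exon junction binder, stood at 0.267 and 0.266 in LM3 (si-FENDRR and si-NC) and at 1.52 and 1.28 in RBE (si-FENDRR and si-NC). The ratio of UPF1 to UPF2 varied less, from 5.20 to 6.43 over the 4 libraries.

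**Figure D4:**
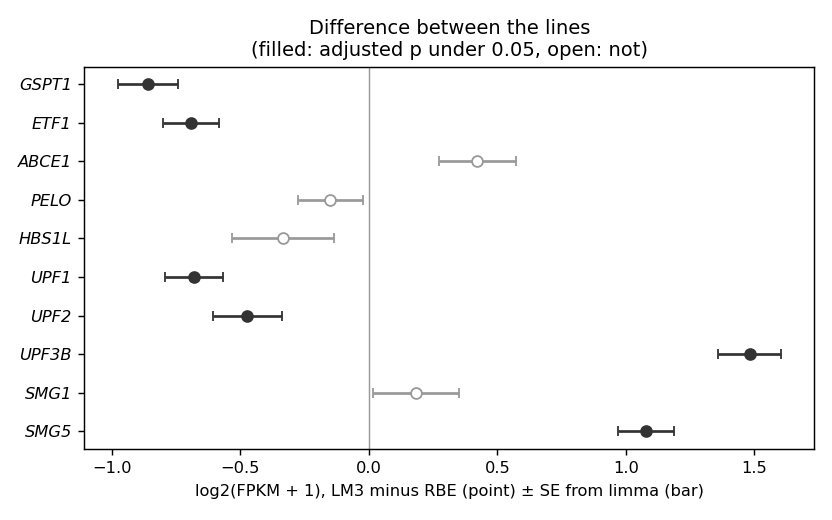
Difference of log2(FPKM + 1) between LM3 and RBE for each of the 10 genes (points) with the standard error from limma (bars), where filled points passed an adjusted p of 0.05 and open points did not. UPF3B (1.48) and SMG5 (1.08) lie to the right and GSPT1 (-0.86), ETF1 (-0.69), UPF1 (-0.68) and UPF2 (-0.47) to the left.

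The genes around these factors were taken from 11 lists written from general knowledge. All 159 listed genes were in the fit, and of these 53 (33.3%) were higher with si-FENDRR in LM3 and in RBE and 29 (18.2%) were lower in both, against 26.9% and 21.8% of all genes. The same 2 shares of all genes stand beside the counts of each list below, and nothing is read from those counts. At least 2-fold differences were seen in 3 of 159 in LM3 and 1 in RBE, against 2.13% and 1.75% of all genes. Between the lines 91 of 159 (57.2%) were called, against 58.7% of all genes. The lowest mean difference over the lines was -0.55 on the log2 scale, against -1.58 for GSPT1. Several of the listed genes named here share exons with a gene on the other strand, so their values are uncertain without a strand setting. The pairs with a partner above an FPKM of 1 are JMJD4 with SNAP47, TRMT112 with ESRRA, C12orf65 with MPHOSPH9, MRRF with RBM18, ASCC1 with ANAPC16, RACK1 with AC008443.1, GTPBP2 with POLH, SMG6 with HIC1 and SRR, CNOT3 with LENG1, TOB1 with TOB1-AS1, EXOSC3 with DCAF10, EXOSC8 with SUPT20H, DIS3 with BORA and PIBF1, SKIV2L with NELFE, MAGOH with AL606760.1, PATL1 with AP000442.2, SRSF2 with MFSD11, DDIT3 with MARS and MBD6, and EEF1B2 with NDUFS1. EEF1B2, SNHG5, RACK1 and SRSF2 also share bases with small RNA genes on their own strand, and EXOSC3 with AL138752.2 (at most 0.0833 FPKM).

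Of 4 other partners of termination, 1 was higher with si-FENDRR in each line and 1 lower in each, and 0 of 4 reached 2-fold. JMJD4, which hydroxylates ETF1, had 5.12 FPKM with si-FENDRR against 6.05 FPKM with si-NC in LM3, and 5.95 (si-FENDRR) against 10.8 (si-NC) FPKM in RBE. N6AMT1, which methylates ETF1, had 1.89 (si-FENDRR) against 1.68 (si-NC) FPKM in LM3 and 3.70 (si-FENDRR) against 4.08 (si-NC) FPKM in RBE, and its activator TRMT112 had 79.0 (si-FENDRR) against 78.0 (si-NC) FPKM in LM3 and 94.3 (si-FENDRR) against 91.9 (si-NC) FPKM in RBE. Between the lines GSPT2, listed at 0 in RBE, was called higher in LM3 (limma adjusted p = 0.000970) and N6AMT1 lower (log2 difference -0.81 ± 0.14, limma adjusted p = 0.0133). Of 3 factors that recycle the small subunit, MCTS1 had 48.4 (si-FENDRR) against 44.2 (si-NC) FPKM in LM3 and 34.9 (si-FENDRR) against 38.5 (si-NC) FPKM in RBE, and its partner DENR had 29.9 (si-FENDRR) against 27.0 (si-NC) FPKM in LM3 and 25.2 (si-FENDRR) against 23.4 (si-NC) FPKM in RBE. EIF2D, which acts alongside them, was called lower in LM3 (-0.70 ± 0.12, limma adjusted p = 0.0116).

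Factors of mitochondrial termination and recycling showed 3 of 6 lower with si-FENDRR in LM3 and in RBE and 1 higher in both, with medians of -0.16 in LM3 and 0.05 in RBE. C12orf65, a rescue factor of mitochondrial ribosomes, had 7.40 FPKM with si-FENDRR against 15.8 FPKM with si-NC in LM3 and 12.1 (si-FENDRR) against 13.0 (si-NC) FPKM in RBE. MRRF, the mitochondrial ribosome recycling factor, had 7.17 (si-FENDRR) against 11.5 (si-NC) FPKM in LM3 and 32.2 (si-FENDRR) against 29.7 (si-NC) FPKM in RBE, and was called lower in LM3 than in RBE (-1.66 ± 0.22, limma adjusted p = 0.00672). For both genes the larger transfection difference was in LM3.

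In the list of ribosome rescue and quality control, 4 of 19 genes were higher with si-FENDRR in LM3 and in RBE and 5 lower in both, with medians of -0.01 in LM3 and -0.03 in RBE. ASCC1, a subunit of the complex with the helicase ASCC3 that splits collided ribosomes, had 6.47 FPKM with si-FENDRR against 4.40 FPKM with si-NC in LM3 and 19.4 (si-FENDRR) against 12.7 (si-NC) FPKM in RBE. ASCC3 itself had 6.01 (si-FENDRR) against 5.33 (si-NC) FPKM in LM3 and 10.2 (si-FENDRR) against 8.95 (si-NC) FPKM in RBE. RACK1, a protein of the small subunit at which collisions are sensed, had 117 (si-FENDRR) against 155 (si-NC) FPKM in LM3 and 489 (si-FENDRR) against 498 (si-NC) FPKM in RBE. Between the lines 11 of 19 (57.9%) were called, near the 58.7% of all genes, 4 higher in LM3, with VCP (0.84 ± 0.11, limma adjusted p = 0.00712) and GTPBP2 (0.91 ± 0.13, limma adjusted p = 0.00845) at the top, and 7 lower, with RACK1 at -1.86 ± 0.14 (limma adjusted p = 0.00223).

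Of 10 other nonsense-mediated decay factors, 3 were higher with si-FENDRR in LM3 and in RBE and 2 lower in both. SMG8, a subunit of the SMG1 kinase complex that restrains it, had 7.40 FPKM with si-FENDRR against 2.81 FPKM with si-NC in LM3 and 8.47 (si-FENDRR) against 4.02 (si-NC) FPKM in RBE. Both si-FENDRR libraries lay above both si-NC libraries, with log2 differences of 1.14 and 0.92. SMG8 shares exons with AC099850.2 on its strand, which was listed at 0 in all 4 libraries. UPF3A, the paralog of UPF3B, had 4.23 (si-FENDRR) against 4.31 (si-NC) FPKM in LM3 and 4.72 (si-FENDRR) against 7.95 (si-NC) FPKM in RBE, and the endonuclease SMG6 had 4.35 (si-FENDRR) against 4.47 (si-NC) FPKM in LM3 and 4.66 (si-FENDRR) against 5.12 (si-NC) FPKM in RBE. Between the lines, DHX34 (1.39 ± 0.11, limma adjusted p = 0.00273) and SMG9 (0.97 ± 0.14, limma adjusted p = 0.00803) were called higher in LM3, and NBAS lower (-1.52 ± 0.15, limma adjusted p = 0.00396).

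Exon junction complex genes were higher with si-FENDRR in each line in 5 of 9 cases and lower in both in 0 of 9. Over all genes the shares were 26.9% and 21.8%, and nothing is read from a count over 9 genes. The list medians were 0.07 in LM3 and 0.14 in RBE. MAGOHB, one of 2 genes for the MAGOH core subunit, had 20.6 FPKM with si-FENDRR against 9.60 FPKM with si-NC in LM3 and 8.10 (si-FENDRR) against 5.39 (si-NC) FPKM in RBE. EIF4A3, the helicase that clamps the complex on RNA, had 52.2 (si-FENDRR) against 61.1 (si-NC) FPKM in LM3 and 52.2 (si-FENDRR) against 51.6 (si-NC) FPKM in RBE. Between the lines 4 of 9 (44.4%) were called, against 58.7% of all genes. MAGOH was called higher in LM3 than in RBE (1.81 ± 0.13, limma adjusted p = 0.00205), and SAP18 lower (-1.89 ± 0.12, limma adjusted p = 0.00183).

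Of 20 genes of poly(A) binding and deadenylation, 8 were higher with si-FENDRR in LM3 and in RBE and 3 lower in both, with medians of -0.06 in LM3 and 0.09 in RBE. PAIP2, an inhibitor of poly(A)-binding protein, had 38.4 FPKM with si-FENDRR against 39.3 FPKM with si-NC in LM3 and 29.8 (si-FENDRR) against 63.4 (si-NC) FPKM in RBE. CNOT3, a subunit of the CCR4-NOT deadenylase, had 30.3 (si-FENDRR) against 22.6 (si-NC) FPKM in LM3 and 24.9 (si-FENDRR) against 16.5 (si-NC) FPKM in RBE. TOB1, which recruits that deadenylase, had 40.7 (si-FENDRR) against 27.6 (si-NC) FPKM in LM3 and 56.4 (si-FENDRR) against 43.1 (si-NC) FPKM in RBE, so that it and CNOT3 were higher with si-FENDRR in each line. Between the lines 12 of 20 (60.0%) were called, near the 58.7% of all genes, with the deadenylase regulator PAN3 lowest in LM3 (-1.38 ± 0.13, SE, limma adjusted p = 0.00355) and the CCR4-NOT subunit CNOT9 highest (0.99 ± 0.16, limma adjusted p = 0.0119).

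Of 18 genes of decapping and 5′-to-3′ decay, 8 were higher in both lines and 2 lower in both, with medians of 0.09 in LM3 and 0.05 in RBE. The decapping enzyme DCP2 had 3.66 FPKM with si-FENDRR against 2.96 FPKM with si-NC in LM3 and 2.62 (si-FENDRR) against 5.83 (si-NC) FPKM in RBE, opposite ways in the lines. DDX6, the helicase of decapping bodies, had 13.6 (si-FENDRR) against 8.45 (si-NC) FPKM in LM3 and 8.02 (si-FENDRR) against 6.53 (si-NC) FPKM in RBE. Between the lines 10 of 18 (55.6%) were called, near the 58.7% of all genes, with PATL1, a decapping scaffold, at 1.54 ± 0.11 (limma adjusted p = 0.00210) and DCPS, which breaks down cap remnants, at 1.48 ± 0.12 (limma adjusted p = 0.00262) highest in LM3. Of 15 genes of the exosome and SKI complex, 4 were higher in both lines and 2 lower in both, with medians of 0.02 in LM3 and 0.04 in RBE. EXOSC3, a cap subunit of the exosome, had 19.2 (si-FENDRR) against 10.6 (si-NC) FPKM in LM3 and 5.87 (si-FENDRR) against 5.05 (si-NC) FPKM in RBE, and the SKI helicase SKIV2L had 17.3 (si-FENDRR) against 24.3 (si-NC) FPKM in LM3 and 12.9 (si-FENDRR) against 14.6 (si-NC) FPKM in RBE. Between the lines 12 of these 15 (80.0%) were called, 7 higher in LM3 and 5 lower, against 58.7%, 32.3% and 26.4% of all genes. EXOSC3 was highest in LM3, at 1.25 ± 0.20 (limma adjusted p = 0.0103). EXOSC8 at -1.39 ± 0.12 (limma adjusted p = 0.00295) and the nuclease DIS3 at -1.05 ± 0.15 (limma adjusted p = 0.00793) were lowest.

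Of 21 transcripts known as sensitive to nonsense-mediated decay, 7 were higher with si-FENDRR in LM3 and in RBE and 4 lower in both. Their medians were 0.04 in LM3 and 0.02 in RBE, against 0 and 0.02 over all genes. SRSF2, a splicing factor that limits itself through splice forms that are decayed, had 57.9 FPKM with si-FENDRR against 36.8 FPKM with si-NC in LM3 and 61.8 (si-FENDRR) against 43.6 (si-NC) FPKM in RBE. DDIT3, the stress factor CHOP, had 106 (si-FENDRR) against 88.1 (si-NC) FPKM in LM3 and 45.7 (si-FENDRR) against 31.5 (si-NC) FPKM in RBE. UPP1 had 37.1 (si-FENDRR) against 45.6 (si-NC) FPKM in LM3 and 46.2 (si-FENDRR) against 48.1 (si-NC) FPKM in RBE, and GADD45B had 15.4 (si-FENDRR) against 20.7 (si-NC) FPKM in LM3 and 6.91 (si-FENDRR) against 6.66 (si-NC) FPKM in RBE. A value per gene sums decayed and stable splice forms, so it does not measure decay. The largest differences of this list were between the lines, with the snoRNA host genes SNHG5 (-3.06 ± 0.12, limma adjusted p = 0.000873) and GAS5 (-2.02 ± 0.10, limma adjusted p = 0.00130) lower in LM3 and DDIT3 higher (1.33 ± 0.12, limma adjusted p = 0.00340).

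Initiation and elongation factors, the other stages of translation, had 10 of 34 genes higher with si-FENDRR in LM3 and in RBE and 7 lower in both, with medians of -0.01 in LM3 and 0.01 in RBE. The scaffold EIF4G1 had 130 FPKM with si-FENDRR against 154 FPKM with si-NC in LM3 and 63.5 (si-FENDRR) against 86.7 (si-NC) FPKM in RBE. Between the lines 21 of 34 (61.8%) were called, 18 of them lower in LM3, against 58.7% called and 26.4% lower over all genes, among them the elongation factor EEF1B2 (-2.08 ± 0.10, limma adjusted p = 0.00125). The medians of the 11 lists lay between -0.16 and 0.14, against -1.48 (LM3) and -1.69 (RBE) for GSPT1. GSPT1 was chosen for its low value, which a list median was not likely to reach, so nothing is read from this.

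**Figure D5:**
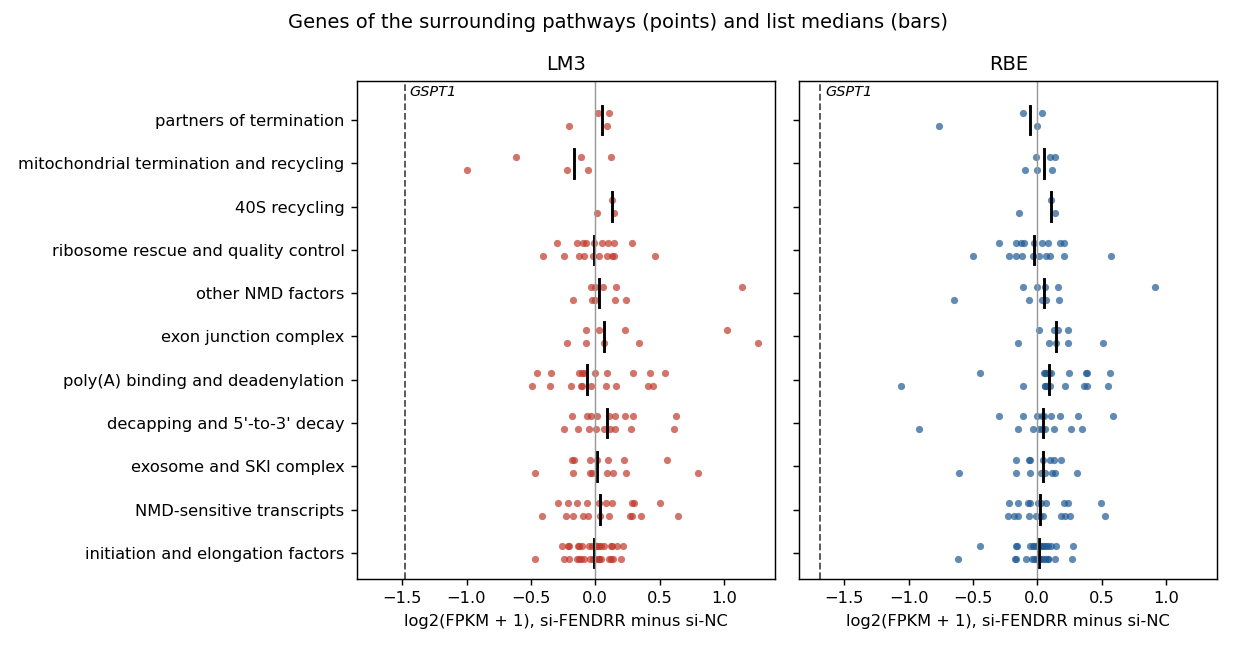
Difference of log2(FPKM + 1) between si-FENDRR and si-NC in LM3 (left) and RBE (right) for the genes of 11 lists, 1 point per gene, with the median of each list as a black bar and GSPT1 as a dashed line at -1.48 and -1.69. The medians lie between -0.16 and 0.14, and no listed gene reaches the dashed line.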

How the data were processed

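The authors deposited FPKM per gene for 4 libraries, per the file headers, and the single-library files hold the same values as the joint table. The submitters' processing notes name FastQC and HISAT2 and the hg38 build, without versions. No source used here names the program behind the FPKM, its annotation, its handling of fragments that fit several genes or the strand setting. Annotation came from GENCODE release 29 on GRCh38, which holds 57836 of the 58174 identifiers and gives all 10 genes the same start and end. Of the 10, 7 share no exon with another listed gene on either strand.

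log2(FPKM + 1) values went into limma version 3.58.1 (R version 4.3.3) with a trended prior variance and terms for cell line and transfection, over the 15930 genes that reached an FPKM of 1 in 1 or more libraries. The line term pairs the libraries, since both transfections were made in the same 2 lines, and the model leaves 1 residual degree of freedom. P-values were adjusted by Benjamini-Hochberg over all genes, at 0.05. The labels name no separate cultures within a line, so p-values do not measure the spread between cultures. They rest on these libraries and on the prior variance (2.892 prior degrees of freedom). Within a line, a difference was counted from 2-fold in FPKM + 1. FPKM gives no counts, so no counting interval is given, and fold changes on this scale understate those of low genes.

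The 10 genes, the lists and the tests were chosen with earlier results of these data known. The rule for named genes took the 10 genes, their copies and overlapping genes, the 5 genes nearest to GSPT1, and from each list the 2 highest and 2 lowest by mean transfection difference and by line difference. The text prints part of these list genes, chosen after their values were seen. In addition, 1 result is not reported here. Pseudocount, scaling, filter, prior, terms, single libraries and genes overlapping on their own strand were varied.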

Additional observations from a re-analysis of the deposited data

Results flagged for a closer look

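Of the 10 genes, 4 differed in opposite directions between si-FENDRR and si-NC in the 2 lines, as 47.1% of all 15930 genes did, and the difference between the lines was not tested, with 1 library per line and transfection. HBS1L stood 0.48 higher on the log2 scale with si-FENDRR in LM3, and its log2 difference in RBE was -0.14. For SMG1, whose pseudogenes make its level uncertain, it was 0.24 in LM3 and -0.23 in RBE. For UPF2 it was -0.12 in LM3 and 0.0266 in RBE, the latter 0.000107 with median-of-ratios scaling. For PELO, which shares exons with ITGA1, it was -0.0856 in LM3 and 0.0848 in RBE.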

How the results depend on the processing

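For each of the 10 genes the transfection difference in LM3 and in RBE was recomputed under pseudocounts of 0.1 and 5, equal library totals and median-of-ratios scaling, and its sign changed in 0 cases. UPF2 in RBE fell to 0.000107 under median-of-ratios scaling, so its direction there is not settled. GSPT1 ranged from -1.52 to -1.34 in LM3 and from -1.72 to -1.59 in RBE. The count of the 10 at least 2-fold apart in both lines was 1 under each of these settings, and the median of all genes moved by less than 0.1. limma called 0 genes between the transfections under every alternative run, with 32 at an unadjusted p under 0.05 without the cell line term and 604 to 1079 otherwise. Between LM3 and RBE, 5 or 6 of the 10 were called under the settings that kept all 4 libraries, and 3 of 10 with any 1 library left out and the line as the only term, where the line with 1 library is assumed to vary like the other. PELO could not be fitted among protein-coding genes that share no exon on their own strand, since it overlaps ITGA1 there. ABCE1 and SMG1, which share exons on the other strand only, stayed in that fit. Over all genes the line comparison called 9348, and with the line as the only term 9643 in all 4 libraries and 5615 to 7009 with a library left out. At pseudocounts of 0.1 and 5, 940 and 100 genes were 2-fold apart in LM3 and 818 and 83 in RBE, against 339 and 279. UPF3B and SMG5 kept their calls under each alternative, and UPF2 in 5 of 12. Without the transfection term (no replicate block) 5 of 10 were called, and GSPT1 was not (adjusted p = 0.376). Depth is unknown, so differences of the size seen for PELO or UPF2 cannot be set against counting error.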

Other observations

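Genes near GSPT1 were examined after the data were seen. Within 500000 bases on either side, 8 other genes were in the fit, and 1 of them, SNX29, was lower with si-FENDRR in LM3 and in RBE, at 2.41 FPKM against 2.91 FPKM with si-NC in LM3 and 1.57 (si-FENDRR) against 2.16 (si-NC) FPKM in RBE. RSL1D1, the nearest of them downstream of GSPT1, had 38.0 FPKM with si-FENDRR against 62.6 FPKM with si-NC in LM3 and 33.0 (si-FENDRR) against 32.1 (si-NC) FPKM in RBE. NPIPB2, on the other side, had 12.8 (si-FENDRR) against 10.8 (si-NC) FPKM in LM3 and 2.20 (si-FENDRR) against 1.98 (si-NC) FPKM in RBE. ZC3H7A had 15.7 (si-FENDRR) against 10.9 (si-NC) FPKM in LM3 and 18.6 (si-FENDRR) against 16.8 (si-NC) FPKM in RBE. The low level of GSPT1 in both si-FENDRR libraries was not shared by these neighbours in both lines to a like degree. As GSPT1 was chosen for that level, this is a description only.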
